A study of Mus musculus with 7 samples.

Results

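Cortical thymic epithelial cells (cTECs) are described here as 420 of 8453 sequenced cells, pooled over 7 droplet-based scRNA-seq libraries of mouse thymic epithelium. A cell was taken as a cTEC when it held no unique molecular identifier (UMI, a tag that counts a single captured RNA molecule) of *Ptprc* or *Aire*, when its *Ccl21a* value was at most 4 as the natural log of 1 plus UMIs per 10000, and when at least 2 of the 3 genes *Psmb11*, *Ackr4* and *Prss16* had a UMI. The choice rests on measured values, so the levels of these 6 genes are given as a description and were not tested. Other genes that vary with them from cell to cell are not independent of the choice of cells either. The name cTEC stands for this rule, and members without a *Psmb11* UMI were low in some cortical genes.

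Each library held EpCAM+ CD45- cells sorted from 3 pooled thymi. The *Aire* lineage tracing library came from 6-week-old C57BL/6 mice with *Aire*-CreERT2 and a stop-floxed zsGreen gene under the CAG promoter in the R26 locus, so that *Aire*-expressing cells and their descendants are marked once 2 mg doses of tamoxifen, given every other day over 10 days, switch the recombinase on. The other 6 libraries came from C57BL/6 mice given 3 injections of 100 µg of antibody within a week. The isotype control libraries were collected 2 and 10 weeks after treatment, at 4 and 12 weeks of age, and the anti-RANKL libraries 2, 4, 6 and 10 weeks after it, at 4, 6, 8 and 12 weeks of age. Each condition is a single library of pooled mice, so conditions were compared without a test, and the spread given below is that between the 7 libraries. Depth ran from 3857876 to 22197691 UMIs per library, with 730 to 1475 cells. Of 50 cell barcodes shared between the 21 pairs of libraries, at most 7 fell in any pair, 11 belonged to a cTEC in at least 1 library and 1 to a cTEC in both. *Xist*, the RNA of the inactive X chromosome, had a UMI in 50.9% of cTECs of the lineage tracing library and in 46.7% at anti-RANKL week 10, against 95.3% to 100% in the other 5 libraries, so these 2 libraries stand apart from the stated use of female mice.

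The thymic cortex is where immature thymocytes rearrange their receptor genes and are positively selected on peptides displayed by cTECs. These cells carry protein-processing enzymes found in few other places. *Psmb11* encodes the β5t subunit of the thymoproteasome, *Prss16* a thymus-specific serine protease, and *Ctsl* the lysosomal protease cathepsin L, which trims peptides for MHC class II. They also draw in and support progenitors through the chemokines *Cxcl12* and *Ccl25*, the Notch ligand *Dll4*, the cytokine *Il7* and stem cell factor (*Kitl*), while *Ackr4* is a scavenging receptor that removes *Ccl25*, *Ccl19* and *Ccl21a* protein. *Foxn1* is the transcription factor on which the epithelial program of the thymus depends.

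Promoter sequences are shown for 4 of these genes, since the FOXN1 core motif GACGC, or GCGTC on the other strand, has been linked to control of *Psmb11*. The windows are RefSeq GRCm38.p6, read 5′ to 3′ in the direction of transcription from 250 bases before to 50 bases after the start site, and capitals mark the motif on either strand. *Psmb11* lies at chr14:54625060-54625359 (plus strand), *Cxcl12* at chr6:117168285-117168584 (plus strand), *Ackr4* at chr9:104126594-104126893 (minus strand) and *Ctsl* at chr13:64370471-64370770 (minus strand).
Psmb11: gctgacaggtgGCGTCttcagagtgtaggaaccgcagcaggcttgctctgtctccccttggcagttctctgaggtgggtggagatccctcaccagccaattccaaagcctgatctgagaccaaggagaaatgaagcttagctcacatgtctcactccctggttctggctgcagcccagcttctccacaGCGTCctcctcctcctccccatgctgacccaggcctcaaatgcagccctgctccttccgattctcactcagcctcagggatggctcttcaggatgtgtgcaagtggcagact
Cxcl12: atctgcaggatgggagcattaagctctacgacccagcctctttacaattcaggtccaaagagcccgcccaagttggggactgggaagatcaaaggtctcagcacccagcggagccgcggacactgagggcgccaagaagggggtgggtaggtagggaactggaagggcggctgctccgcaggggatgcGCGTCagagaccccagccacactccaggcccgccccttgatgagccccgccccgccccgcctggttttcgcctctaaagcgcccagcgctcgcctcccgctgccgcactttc
Ackr4: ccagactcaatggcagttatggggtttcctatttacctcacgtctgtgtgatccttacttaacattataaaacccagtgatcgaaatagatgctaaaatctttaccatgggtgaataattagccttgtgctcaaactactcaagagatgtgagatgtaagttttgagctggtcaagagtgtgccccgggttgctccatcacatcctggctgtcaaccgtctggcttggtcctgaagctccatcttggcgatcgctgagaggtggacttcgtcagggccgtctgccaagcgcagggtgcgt
Ctsl: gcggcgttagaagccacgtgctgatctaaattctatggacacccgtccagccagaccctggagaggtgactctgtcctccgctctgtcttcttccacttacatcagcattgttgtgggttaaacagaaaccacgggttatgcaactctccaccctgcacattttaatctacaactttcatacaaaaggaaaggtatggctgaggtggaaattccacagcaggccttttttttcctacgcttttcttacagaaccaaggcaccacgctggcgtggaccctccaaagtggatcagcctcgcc
The *Psmb11* window held the motif at bases -239 and -62 from the start site and the *Cxcl12* window at base -62, while those of *Ackr4* and *Ctsl* held no match in these letters. The motif is short and occurred in 27.2% of all 32851 promoter windows and in 46.5% of the 8474 windows of genes tested below. Among genes called higher in cTECs it occurred in 39.1% of 274 windows, and among genes called lower in 27.0% of 445 windows.

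Most cTECs were taken in through *Prss16* together with *Ackr4*. All 3 genes had a UMI in 110 cells, only *Ackr4* and *Prss16* in 190, only *Psmb11* and *Prss16* in 83 and only *Psmb11* and *Ackr4* in 37. *Psmb11* had a UMI in 54.8% of cTECs, in 9.86% of the other *Ptprc*-negative cells and in 15.5% of *Ptprc*-positive cells. *Ackr4* had a UMI in 80.2% of cTECs against 8.88% and 21.5%, and *Prss16* in 91.2% against 30.2% and 30.5%. The *Ptprc*-positive cells were mixed, with T cell markers at 313 to 4677 CPM and tuft cell markers at 148 to 3941 CPM in sum, so they are no clean measure of free RNA. Of the 233 *Ptprc*-positive cells, 16 would have passed the rest of the rule, which is 6.87% (exact 95% interval 3.98 to 10.9, counting error only) against 5.11% (4.64 to 5.61) of the 8220 *Ptprc*-negative cells.

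*Ccl21a*, the chemokine of the medulla, was present in most cTECs. It was at 0 in 45 cells, between 0 and 2 on the natural log scale in 161, between 2 and 3 in 156 and between 3 and 4 in 58. A further 107 *Aire*-negative cells with at least 2 gate genes lay just outside the limit, between 4 and 5. The median *Ccl21a* value of cTECs followed that of *Ptprc*-positive cells of the same library, from 0.76 against 1.00 at isotype week 2 to 2.86 against 2.93 at anti-RANKL week 6. The limit on *Ccl21a* holds for cTECs alone and lowers their median, since it left out 81 cells with at least 2 gate genes in the lineage tracing library and 98 at anti-RANKL week 2, against 55 and 91 kept. In the 373 *Aire*-negative cells above the limit that held at least 2 gate genes, *Psmb11* had a UMI in 75.3% of cells and *Prss16* in 96.5%, but *Ackr4* in 39.1%. Their mean level of *Ackr4* was 82.8 ± 34.0 CPM (UMIs of the gene scaled to the summed UMIs of the cells, SD, n = 7 libraries), against 213 ± 79.9 in cTECs with *Ccl21a* between 2 and 4 (5 libraries with at least 5 such cells). *Krt5*, a basal keratin, went from 398 ± 212 CPM in cTECs without *Ccl21a* (3 libraries) through 554 ± 273 below 2 (6 libraries) and 854 ± 214 from 2 to 4 to 1818 ± 354 above the limit. *Cxcl12* went the other way, from 1591 ± 473 through 1109 ± 293 and 957 ± 417 to 537 ± 165 CPM. The bands rest on different libraries, since the 3 with enough cells without *Ccl21a* were both isotype libraries and anti-RANKL week 10. The band means therefore mix *Ccl21a* band and library, and the part of each was not tested. Over single libraries, *Krt5* was at 1424 to 2413 CPM above the limit and at 205 to 1051 CPM in the bands inside it. For *Cxcl12* these ranges were 324 to 770 and 520 to 2006 CPM, with overlap. *Ctsl* was at 7313 ± 1972 CPM above the limit, against 4111 ± 2346 to 4627 ± 1968 inside it.

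cTECs made up 2.73% to 7.72% of the *Ptprc*-negative cells of a library. The share was lowest in the isotype controls, at 3.54% (2.54 to 4.79) of 1129 cells at week 2 and 2.73% (1.90 to 3.79) of 1247 cells at week 10. It was 7.69% (6.23 to 9.35) of 1184 cells at anti-RANKL week 2, 7.72% (6.40 to 9.21) of 1451 at week 4, 5.98% (4.36 to 7.97) of 719 at week 6 and 3.84% (2.81 to 5.10) of 1172 at week 10. In the lineage tracing library it was 4.17% (3.16 to 5.40) of 1318 cells. The anti-RANKL share exceeded that of the isotype control by 4.14 percentage points at week 2 (0.365 with all 3 gate genes and 11.2 with at least 1). At week 10 it did so by 1.11 points (0.067 with all 3 gate genes and 0.053 with at least 1). Each is from 1 library against 1, so that the spread between libraries of a condition is unknown. These shares depend on how many *Aire*-positive cells a library held, since anti-RANKL week 4 had 62 and isotype week 2 had 768. Taken over the *Aire*-negative cells alone, cTECs were 11.1% (8.03 to 14.8) at isotype week 2 and 9.28% (7.53 to 11.3) at anti-RANKL week 2, which turns the difference to -1.80 points. With every cell thinned to 2000 UMIs before the rule was applied, the shares were 1.47% and 2.48% at week 2 and 1.35% and 2.61% at week 10. The numbers of cells say how cTECs stood against the other sorted cells, and fewer cells of a type and other losses in sorting or filtering cannot be told apart.

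**Figure D1:**
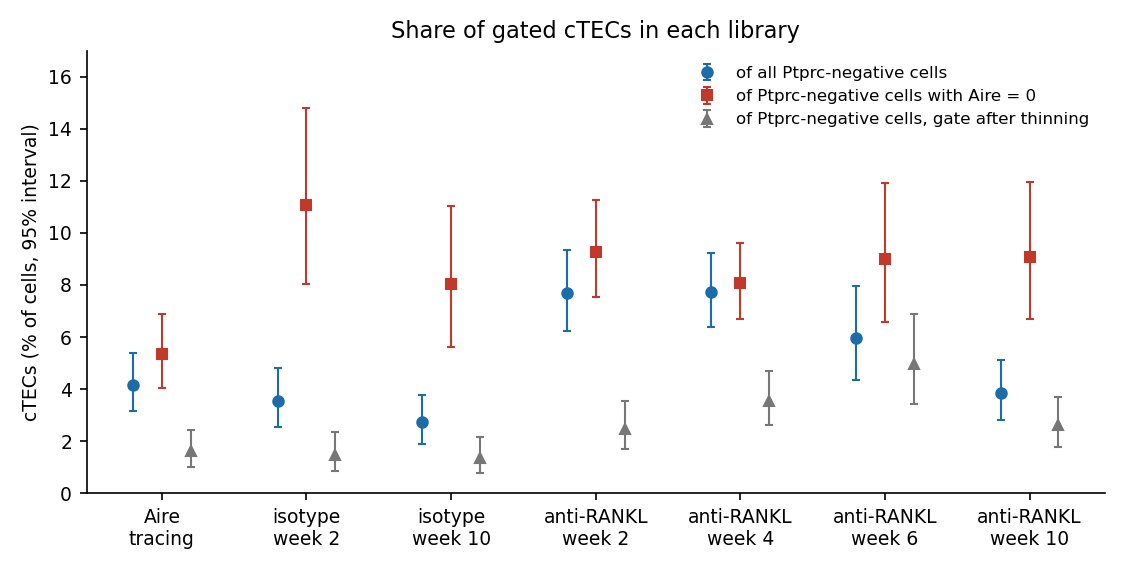
Share of cTECs in each of the 7 libraries, as a percent of *Ptprc*-negative cells, of *Aire*-negative cells, and of *Ptprc*-negative cells after thinning to 2000 UMIs, with exact 95% binomial intervals that cover counting error only. Among *Ptprc*-negative cells the share lay between 2.73% and 7.72%, while among *Aire*-negative cells isotype week 2 was highest at 11.1%.

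Within each library, the summed UMIs of cTECs were compared with those of the other cells, on log2(CPM + 10), with limma over the 7 paired differences. Genes were called at an adjusted p under 0.05 and a difference of at least 2-fold. Against all other *Ptprc*-negative cells, 241 of 8614 genes were called higher (2.8%) and 474 lower (5.5%). Against *Ccl21a*-high cells (3067 cells with *Aire* at 0 and *Ccl21a* above 4) it was 185 of 8337 genes higher (2.22%) and 228 lower (2.73%), and against the 3061 *Aire*-positive cells 601 of 8570 higher (7.01%) and 688 lower (8.03%). The gene lists below are small and were not tested as sets, so their counts are to be read beside these shares. The median log2 difference over all genes was 0.09, 0.08 and 0.12 in the 3 comparisons. Centred on it, 451 genes were higher and 814 lower against *Aire*-positive cells, and with the mean of the deposited log values in place of summed UMIs 23 were higher and 13 lower against all other cells. Without the 2 libraries that stood apart in *Xist*, the counts were 246 and 419, 228 and 247, and 562 and 663.

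Cortical genes that the rule did not use were looked at next, and some of them were higher in cTECs. Of 18 such genes, 15 were abundant enough to test, 9 were called higher against all other cells, 1 lower and 5 were not called, with a median log2 difference of 1.17. Against *Ccl21a*-high cells 8 of 14 were called higher and none lower by limma (11 higher and 1 lower at an unadjusted p under 0.05, median 1.61), and against *Aire*-positive cells 9 of 15 were higher and 1 lower (median 1.11). These genes were listed as cortical with earlier results of these data known, and were measured in the same cells as the gate genes. The counts therefore describe the cells and are no check of the label. In the 190 cTECs without a *Psmb11* UMI the name rests on *Ackr4* and *Prss16*, and the cortical genes outside the rule were divided. *Ccl25* at 99.3 ± 66.0 CPM and *Foxn1* at 21.9 ± 14.7 CPM were under the 349 and 54.1 CPM of all other cells. *Cxcl12* was at 602 ± 181 CPM against 120 CPM. For these cells cTEC is the name of the gate and not a settled cell type.

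*Cxcl12*, which draws progenitors into the cortex, had the largest difference among genes of at least 50 CPM called higher in cTECs. It stood between 752 CPM at anti-RANKL week 2 and 1723 CPM at anti-RANKL week 10 in cTECs, with a median of 941, and between 29.3 and 230 CPM in the other cells of the same libraries. The ranges did not overlap, and the log2 difference was 3.20 ± 1.23 (SD, n = 7, adjusted p = 8.76e-05). The log2 difference was 2.37 against *Ccl21a*-high cells and 4.02 against *Aire*-positive cells. *Ctsl* stood between 3577 and 5936 CPM in cTECs (median 4041) and between 529 and 2922 CPM in the other cells, a log2 difference of 1.71 ± 1.32 (adjusted p = 0.00452). *Ctsl* was not called against *Ccl21a*-high cells, which averaged 3146 CPM (log2 difference 0.44), and was called against *Aire*-positive cells at 888 CPM (2.63). With *Aire*-negative cells alone as the comparison its log2 difference was 0.96, short of a call.

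*Ccl25*, the ligand that attracts thymocytes through CCR9, was higher in cTECs in 6 of 7 libraries. It ranged from 259 to 2241 CPM (median 821) against 190 to 485 CPM in the other cells, and anti-RANKL week 2 was the library in which cTECs were below the rest, at 259 against 444 CPM. The log2 difference of 1.17 ± 0.96 (adjusted p = 0.00681) was 0.97, under the 2-fold line, without isotype week 10. *Aire*-positive cells averaged 620 CPM and did not differ by a call (0.51). *Kitl* was higher in all 7 libraries, at 31.1 to 81.0 CPM (median 54.5) against 7.43 to 17.5 CPM, a log2 difference of 1.51. *Il7* was at 188 ± 46.8 CPM in cTECs and 133 CPM elsewhere, with a log2 difference of 0.63 that was not called. *Dll4* was under the limit of 10 CPM for testing, at 9.55 ± 4.54 against 8.03 CPM. *Foxn1* was at 56.0 ± 20.0 CPM in cTECs and 54.1 CPM in the other cells (log2 difference 0.00, adjusted p = 0.997).

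The other cortical genes called higher were *Snhg11*, a long non-coding RNA (2.43), *Syngr1*, a synaptic vesicle protein (2.03), the endocytic receptor *Ly75* or DEC-205 (1.81), the MHC class II stabilizer *Cd83* (1.28) and the exonuclease *Isg20* (1.17). *Ly75* was at 46.6 to 157 CPM in cTECs (median 81.7) and at 11.5 to 26.0 CPM in the other cells, with no overlap. *Isg20* was at 0.93 without the 2 libraries that had *Xist* in about 50% of cells, and was then not called. *Tbata* (0.61), *Enpep* (0.76) and *Slc46a2* (0.80) were not called, and *Tbata* and *Enpep* were higher in 5 of 7 libraries each. *Ccl20*, a chemokine for CCR6, was the cortical-list gene called lower, at 0 to 10.5 CPM (median 2.86) against 1.47 to 256 CPM (log2 difference -2.53).

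**Figure D2:**
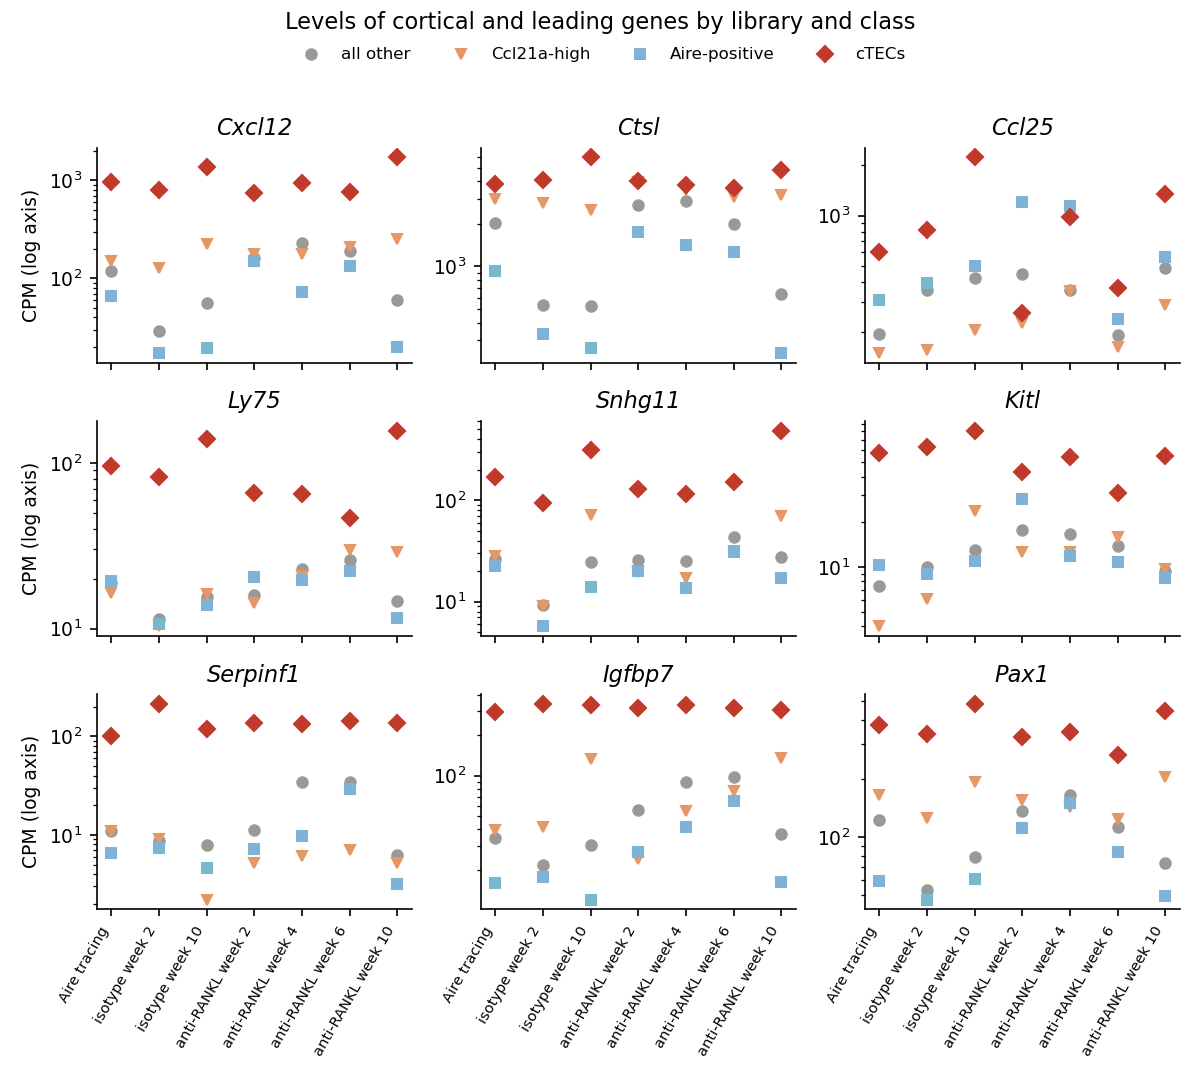
CPM of 9 cortical and leading genes in each library, on log axes, for cTECs (red diamonds), all other *Ptprc*-negative cells (grey circles), *Ccl21a*-high cells (orange triangles) and *Aire*-positive cells (blue squares). *Cxcl12* of cTECs, at 752 to 1723 CPM, lay above every other point of its panel, while *Ccl25* of cTECs was below the other cells at anti-RANKL week 2.

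The genes with the largest differences were mostly outside the known cortical list. After *Cxcl12* came *Serpinf1*, the secreted anti-angiogenic serpin PEDF, at 99.8 to 214 CPM in cTECs (median 135) and 6.21 to 34.8 CPM elsewhere, a log2 difference of 2.61 ± 0.69. *Igfbp7*, a secreted IGF-binding-protein family member, was the steadiest of them, at 299 to 342 CPM in cTECs of all 7 libraries (median 319) against 21.6 to 97.2 CPM (log2 difference 2.55 ± 0.68). Both had an adjusted p of 4.14e-05. The potassium channel *Kcnk2* (2.49), the endosomal co-chaperone *Dnajc13* (2.49), the sodium channel *Scn1a* (2.33), the ribonuclease *Rnase4* (2.31) and the phospholipid transfer protein *Pltp* (2.29) followed. *Frmd6* (2.22), the secreted serine protease *Prss23* (2.14), the matrix proteoglycan *Prelp* (2.13), the monoglyceride lipase *Mgll* (2.13), the Wnt antagonist *Dact2* (2.12) and the membrane glycoprotein *Gpm6b* (2.07) completed the list. Each was higher in 7 of 7 libraries against all other cells, which the rule for naming required. Each was also higher in 7 of 7 against *Ccl21a*-high cells and against *Aire*-positive cells.

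Against *Ccl21a*-high cells the largest differences were in *Serpinf1* (3.17), *Dnajc13* (2.79), *Mgll* (2.58), *Gpm6b* (2.50) and *Rnase4* (2.41). In *Ccl21a*-high cells *Serpinf1* averaged 6.53 CPM and *Mgll* 28.3 CPM, against 140 ± 35.7 and 220 ± 55.5 CPM in cTECs. Against *Aire*-positive cells they were in *Cxcl12* (4.02), *Rnase4* (3.28), *Igfbp7* (3.26), *Gas1* (3.21) and the matrix proteoglycan *Dcn* (3.17). *Gas1*, a GPI-anchored Hedgehog co-receptor, was at 646 ± 201 CPM in cTECs, 355 CPM in *Ccl21a*-high cells (log2 difference 0.82, not called) and 73.3 CPM in *Aire*-positive cells. *Dcn* was at 1166 ± 478 CPM in cTECs and 297 CPM in all other cells (log2 difference 2.06). *Dcn* is also a fibroblast gene. Of the 8 fibroblast markers 7 had a UMI in cTECs, and their summed level was 654 to 1917 CPM against 184 to 558 CPM in the other cells, nearly all from *Dcn*. Of 3 fibroblast markers tested against all other cells, 1 was called higher, *Dcn*. *Lum* (log2 difference by library -0.71 to 1.09) and *Thy1* (-1.80 to 0.89) were not called. *Col1a1* and *Pdgfra* were at 0 and 0.23 CPM in cTECs. The part of fibroblast RNA in these levels was not tested.

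Genes called lower in cTECs were led by *S100a8* (-3.39), an antimicrobial calcium-binding protein, *Ccl5* (-3.15), *Fgf21* (-3.02), the transcript CR974586.5 (-3.00), *Ccl19* (-2.92), *Calcb* (-2.90), parathyroid hormone *Pth* (-2.89), *Cxcl2* (-2.84), *Fam25c* (-2.80) and *Gm14275* (-2.75). *S100a8* averaged 19.7 ± 17.1 CPM in cTECs, 22.0 CPM in *Ccl21a*-high cells and 665 CPM in *Aire*-positive cells, and its log2 difference was -1.42 with *Aire*-negative cells alone as the comparison. *Calcb* and *Gm14275* were at -0.97 and -0.98 with *Aire*-negative cells alone as the comparison and were then not called. *Ccl19*, which shares the receptor CCR7 with *Ccl21a*, was low against both classes, at 121 ± 174 CPM in cTECs, 700 CPM in *Ccl21a*-high cells and 753 CPM in *Aire*-positive cells. Its highest value in cTECs was 512 CPM at anti-RANKL week 6, and the other libraries lay between 22.1 and 102 CPM. Against *Ccl21a*-high cells the lowest were *Ccl11* (-3.96), *Gpx3* (-3.59), *Gm21541* (-3.52) and *Cxcl14* (-3.44). *Gpx3*, a secreted glutathione peroxidase, averaged 83.8 ± 62.0 CPM in cTECs and 973 CPM in *Ccl21a*-high cells. *Gm21541* lies on chromosome 4 near *Ccl21a* and *Ccl19*, in a region of near-identical chemokine copies, so its counts may include reads of *Ccl21a*, a gene of the rule.

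Genes of the medulla were low as a group. The rule keeps *Aire*-positive and *Ccl21a*-high cells out of the cTECs but leaves them among all other cells. Low levels of genes that vary with *Aire* or *Ccl21a* therefore follow in part from the rule and are a description. Of 19 tested medullary genes 14 were called lower against all other cells and none higher by limma (18 lower and 0 higher at an unadjusted p under 0.05, median -1.44). It was 5 of 14 lower and none higher by limma against *Ccl21a*-high cells (11 and 1 at an unadjusted p under 0.05, median -0.93). *Fezf2*, a regulator of tissue-restricted antigens, was at 28.0 to 181 CPM in cTECs (median 84.8) and at 222 to 645 CPM in the other cells (log2 difference -2.20). *Tnfrsf11a*, the receptor RANK that the treatment antibody's target binds, was at 0 to 20.7 CPM (median 10.5) against 41.6 to 87.6 CPM (log2 difference -1.89), and was lower against *Ccl21a*-high cells too (-1.44). *Relb* (-1.30), *Nfkb2* (-1.35) and *Nfkbia* (-1.51), of the NF-κB pathway downstream of RANK and CD40, were lower, and so were *Cd40* (-1.87) and *Cd80* (-1.49). *Nfkb1* was at 137 ± 31.0 against 72.3 CPM (0.83, not called). Of 15 NF-κB genes tested, 6 were called lower and 1 higher, *Tnfrsf1a* (1.01), which was not called without isotype week 2 (0.93), isotype week 10 (0.90) or anti-RANKL week 10 (0.92). With *Aire*-negative cells alone as the comparison, *Relb* (-0.80), *Nfkb2* (-0.94) and *Cd40* (-0.80) were not called.

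Among 16 tested transcription factors of the thymic epithelium, 2 were called higher and 4 lower, beside 2.8% and 5.5% of all genes. *Pax1*, a paired-box factor of the third pharyngeal pouch, was at 264 to 486 CPM in cTECs (median 349) and at 53.4 to 164 CPM in the other cells (log2 difference 1.77 ± 0.68, adjusted p = 0.000116), and was higher against *Ccl21a*-high cells (1.17) and *Aire*-positive cells (2.15). *Trp63*, the epithelial p53 homolog, was at 212 to 357 CPM (median 268) against 31.5 to 169 CPM (1.50), and at 168 CPM in *Ccl21a*-high cells was not called (0.68). *Fezf2*, *Relb* and *Spib* (-1.54) were among those lower. *Pax9* (0.36) and *Eya1* (0.70) were not called.

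Few genes of the core presentation machinery were called, and a few enzymes differed much. None of the 21 proteasome genes tested was called against all other cells by limma (3 higher and 6 lower at an unadjusted p under 0.05). *Psmb9*, the immunoproteasome β1i subunit, was at 473 ± 130 CPM in cTECs and 239 CPM elsewhere (log2 difference 0.92, and 1.00 and called without anti-RANKL week 6). *Psme2*, of the PA28 activator, was at 209 to 298 CPM (median 243) against 252 to 725 CPM (-0.80). Against *Aire*-positive cells *Psmb9* was called higher (1.05) and *Psme2* lower (-1.22). None of the 13 MHC class I genes was called by limma (1 higher and 4 lower at an unadjusted p under 0.05), and *B2m* was at 5850 ± 1000 against 9262 CPM (-0.66, lower in 7 of 7 libraries). Of 12 genes of the MHC class II presentation list 3 were called lower, the costimulatory genes *Cd40* and *Cd80* and, of the class II genes proper, *H2-Oa* (-1.15), which was at -0.95 without isotype week 10. *H2-Ab1* itself was at 5806 ± 1021 and 5648 CPM (0.03). By library, log2 differences were -0.79 to -0.05 for *H2-Eb1*, -0.70 to -0.09 for *Cd74* and -0.83 to 0.09 for *H2-Aa*. At an unadjusted p under 0.05 by limma, 2 of the list were higher and 7 lower (median -0.37). Against *Aire*-positive cells 1 was called higher and 4 lower (median -0.72), and against *Ccl21a*-high cells none was called (median 0.07). *H2-DMa*, which loads peptides, was at 487 ± 83.1 and 242 CPM (0.97, higher in 7 of 7 libraries, not called, but called without anti-RANKL week 4 at 1.00 or week 6 at 1.05).

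The lysosomal proteases went in both directions. *Ctsl* was called higher, and 5 of the 14 tested were called lower, *Ctsh* (-2.28), *Ctss* (-1.87), *Ctsz* (-1.61), *Ctsc* (-1.13) and the thiol reductase *Ifi30* (-1.11). *Ctss*, the class II protease of most other antigen-presenting cells, was at 7.92 to 46.1 CPM in cTECs (median 20.7) against 38.8 to 220 CPM, lower in 7 of 7 libraries. Without isotype week 10, *Ctsc* was at -0.97 and *Ifi30* at -0.89. None of the 14 was called against *Ccl21a*-high cells by limma (4 higher and 4 lower at an unadjusted p under 0.05). Of 24 autophagy genes 1 was called higher, near the 2.8% of all genes. It was *Lamp2*, a lysosomal membrane protein of autophagy (558 ± 124 against 235 CPM, 1.23), which was at 0.97 with *Aire*-negative cells alone as the comparison.

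Ligands for thymocytes went in both directions. Of 16 tested, 4 were called higher (*Cxcl12*, *Ccl25*, *Kitl* and the Notch ligand *Dll1*) and 3 lower (*Il15*, *Icosl* and *Ccl19*), beside 2.8% and 5.5% of all genes. *Il15* was at 7.63 to 28.0 CPM in cTECs and at 30.6 to 91.4 CPM elsewhere (-1.21), and *Icosl* at 3.40 to 18.1 CPM (median 10.4) against 10.9 to 98.5 CPM (-1.72). Neither was called against *Ccl21a*-high cells (-0.38 and -0.64). *Dll1* was at 34.0 ± 8.98 against 12.5 CPM (1.02) and fell under the 2-fold line without isotype week 2 (0.97), isotype week 10 (0.91) or anti-RANKL week 10 (0.92). *Wnt4* was at 200 ± 72.4 against 104 CPM (0.96, not called), and was called without anti-RANKL week 2 (1.09), week 4 (1.08) or week 6 (1.06). *Bmp4*, not tested for its low level, was at 9.51 to 29.5 CPM in cTECs (median 16.8) and at 0.95 to 4.52 CPM in the other cells, with no overlap. Of 14 tested BMP, Wnt, FGF and IGF genes, *Igfbp4* (1.06) and *Igfbp5* (1.01) were called higher, each in 6 of 7 libraries. *Igfbp4* was at 0.79 without isotype week 2 and 0.95 without isotype week 10. *Igfbp5* was at 0.88 to 0.99 without the lineage tracing library, either isotype library or anti-RANKL week 10.

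Basal keratins were lower than in *Ccl21a*-high cells. Of 16 keratin and adhesion genes, 4 were called lower against all other cells, among them *Cldn4* (-1.68) and *Krt17* (-1.06), the latter not called without isotype week 2 or without anti-RANKL week 10 (-0.99). Set against *Ccl21a*-high cells 4 were lower, with *Krt5* at 626 ± 230 against 1965 CPM (-1.70), *Krt14* at 757 ± 254 against 2026 CPM (-1.49) and *Krt17* at -1.57, and *Krt19* was higher at 202 against 56.7 CPM (1.54). Of the 16, 2 were higher and 3 lower against *Aire*-positive cells, where 7.01% of all genes were called higher and 8.03% lower. *Krt8* and *Krt18*, keratins of simple epithelium, were at 1862 ± 406 and 2900 ± 1037 CPM and not called in any of the 3 comparisons. Of 12 surface genes listed for epithelial progenitors, 1 was called higher against all other cells and 3 lower, among them *Cldn4* and *Krt17* (median -0.42), and none was higher and 2 lower against *Ccl21a*-high cells by limma (2 higher and 5 lower at an unadjusted p under 0.05). The higher one was the surface glycoprotein *Pdpn* (1.12), at 0.89 without isotype week 2.

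Some cell-cycle genes were lower in cTECs. Of 17 tested, 4 were called lower against all other cells, *Ube2c* (-1.52), *Cdk1* (-1.41), *Top2a* (-1.23) and *Rrm2* (-1.10, not called without anti-RANKL week 6), and 8 against *Aire*-positive cells. It was 1 of 14 against *Ccl21a*-high cells, where 2.73% of all genes were called lower. *Top2a* was at 0.95 to 47.3 CPM in cTECs (median 8.38) and at 10.7 to 81.1 CPM in the other cells, and was at -0.98 without isotype week 10. With *Aire*-negative cells alone as the comparison *Ube2c* (-0.43), *Cdk1* (-0.38) and *Top2a* (-0.19) were not called. Interferon-stimulated genes were led by *Ifi27* (1.24) and *Isg15* (1.04), the 2 of 15 called higher against all other cells, and *Ifi27* was also called against *Ccl21a*-high cells (1.22). The list as a whole was not higher there, with a median of -0.29 and 2 genes higher and 7 lower at an unadjusted p under 0.05. *Isg15* was at 0.83 without isotype week 2, 0.95 without isotype week 10 and 0.99 without anti-RANKL week 10. None of the 14 immediate early genes, which respond to tissue digestion, was called against all other cells by limma (0 higher and 6 lower at an unadjusted p under 0.05). Against *Ccl21a*-high cells 2 were called lower, *Atf3* (-1.61) and *Dusp1* (-1.13), and all 14 were lower at an unadjusted p under 0.05 (median -0.68), and their part in that comparison was not tested.

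Markers of other cells were present in cTECs to unlike degrees. The 20 T cell and thymocyte markers summed to 14.7 to 77.7 CPM in cTECs and 45.2 to 89.7 CPM in the other *Ptprc*-negative cells, against 313 to 4677 CPM in *Ptprc*-positive cells. The 6 endothelial markers summed to 0 to 14.7 CPM in cTECs, with *Cdh5*, *Kdr*, *Tie1* and *Emcn* at 0. Tuft cell markers were not low. All 12 had a UMI in cTECs and summed to 77.3 to 1008 CPM (median 512), against 156 to 389 CPM in the other *Ptprc*-negative cells, and 30 of 420 cTECs held at least 5 UMIs of the list, 13 of them at anti-RANKL week 2. None of the 10 tuft genes tested was called against all other cells by limma (0 at an unadjusted p under 0.05), but 6 of 8 were higher against *Ccl21a*-high cells, such as *Alox5ap* (1.97) and *Avil* (1.88), and 4 of 9 against *Aire*-positive cells. The 10 macrophage and dendritic cell markers summed to 9.51 to 228 CPM in cTECs against 55.1 to 606 CPM in the other *Ptprc*-negative cells, with *Itgax* and *Flt3* at 0. At anti-RANKL week 6 cTECs held more of them, at 228 CPM, than the other *Ptprc*-negative cells (140 CPM) and the *Ptprc*-positive cells (192 CPM), and their part in the results was not tested. The 5 B cell markers summed to 0 to 12.4 CPM, with *Ms4a1* at 0, and *Ighm* was at 0 in every class. All 3 tested erythroid, all 3 neuroendocrine and 2 of 5 cornified cell markers were called lower. Of 9 steroid and redox genes *Gpx3* was lower (-2.39), and of 5 complement genes none was called by limma (0 higher and 2 lower at an unadjusted p under 0.05). The methods describe no step against doublets, and none was applied here. Without the 30 cells with at least 5 tuft list UMIs, 283 genes were called higher and 563 lower against all other cells.

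**Figure D3:**
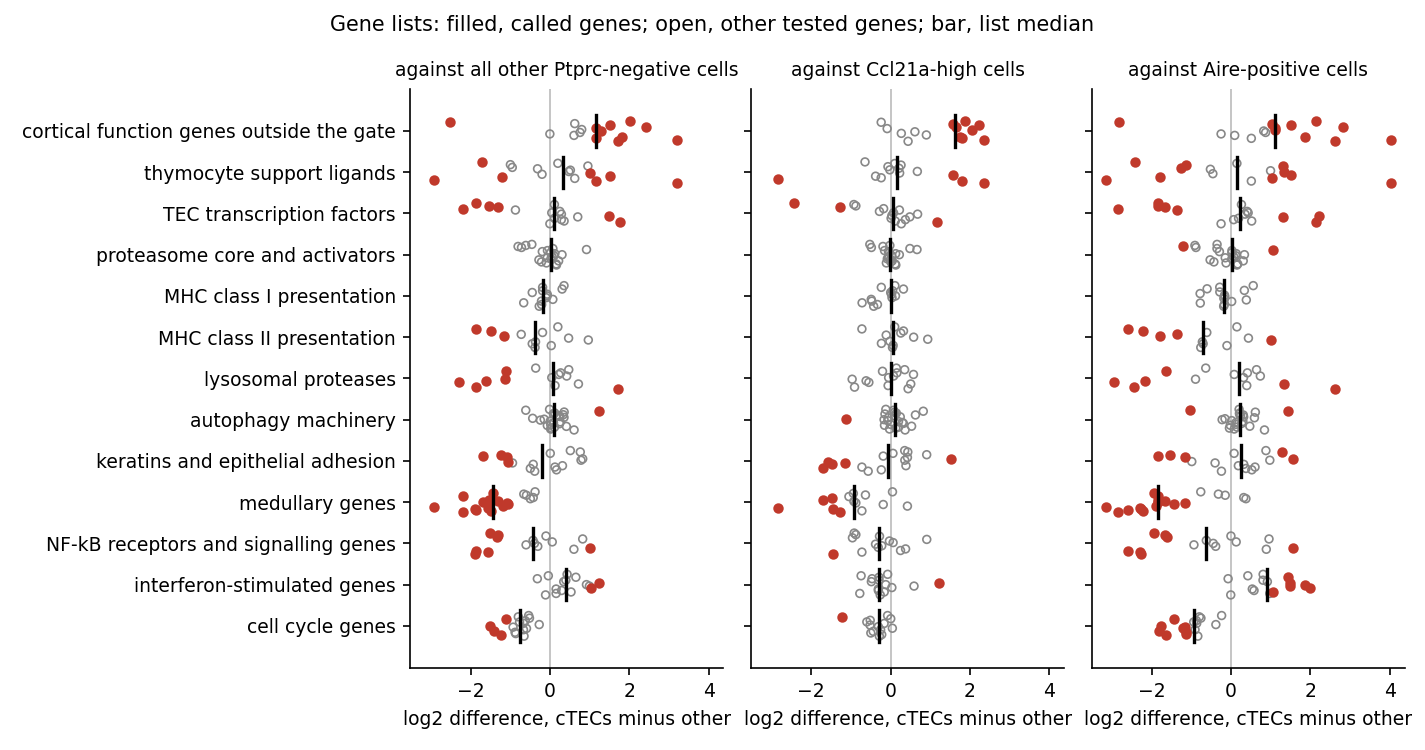
Log2 difference of cTECs from all other *Ptprc*-negative cells (left), *Ccl21a*-high cells (middle) and *Aire*-positive cells (right) for each tested gene of 13 lists, with called genes as filled red points, other tested genes as open points and the list's median as a black bar. On the left the cortical list has its median at 1.17 and the medullary list at -1.44, while the proteasome list lies around its median of 0.02 with no filled point.

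cTECs with and without a *Psmb11* UMI differed in genes of the cortical list. This split was chosen after the values were seen and is given as a description. A *Psmb11* UMI was found in 230 cTECs and not in 190, and the latter hold both *Ackr4* and *Prss16* by construction. The share with it was lowest at anti-RANKL week 2, at 40.7% (30.5 to 51.5), and highest at anti-RANKL week 10, at 75.6% (60.5 to 87.1). Depth was alike, with median UMIs per cell of 4107 to 10586 with and 4638 to 11639 without the UMI. Over the cortical list the median log2 difference between the 2 kinds of cell was 1.43, against 0.06 over the 3117 genes of at least 50 CPM. Of 15 cortical genes 11 were higher in 7 of 7 libraries, against 4.78% of those 3117 genes. The cortical list was not held to 50 CPM, with *Enpep* at 28.1 and 5.66 CPM, so the 2 shares are not alike. *Psmb11* is a gene of the rule and was measured in the same cells, so these counts are not separate evidence of a cortical program.

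*Ccl25* was at 1436 ± 835 CPM in cTECs with a *Psmb11* UMI and at 99.3 ± 66.0 CPM in those without (SD, n = 7 libraries), and the ranges of 569 to 3083 and 25.4 to 211 CPM did not overlap. *Tbata*, named for its expression in thymus, brain and testis, was at 2493 ± 1464 and 186 ± 108 CPM, again without overlap. The difference reached the genes that were not called for cTECs as a whole. *Foxn1* was at 77.6 ± 26.5 and 21.9 ± 14.7 CPM, *Slc46a2* at 389 ± 84.9 and 134 ± 54.2 CPM, and *Dll4* at 15.2 ± 5.79 and 1.21 ± 3.20 CPM. *Ctsl* was at 5806 ± 988 and 2158 ± 451 CPM, *Cd83* at 82.2 ± 43.5 and 2.42 ± 3.20 CPM and *Ly75* at 127 ± 43.9 and 40.8 ± 16.2 CPM. *Cxcl12* was at 1361 ± 327 and 602 ± 181 CPM.

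The genes that led the comparison with all other cells were split. *Frmd6* (205 ± 85.1 with and 63.7 ± 34.0 CPM without the UMI), *Pltp* (1058 ± 75.5 and 646 ± 133 CPM) and *Dact2* (212 ± 54.9 and 128 ± 47.2 CPM) were higher with it in 7 of 7 libraries, and *Igfbp7* and *Kcnk2* in 6 of 7. Others were close. *Serpinf1* was at 130 ± 35.1 CPM with and 158 ± 48.8 CPM without the *Psmb11* UMI, though lower with it in 6 of 7 libraries. *Mgll* was at 220 ± 63.3 and 216 ± 56.7 CPM, *Rnase4* at 333 ± 127 and 343 ± 74.8 CPM and *Kitl* at 58.1 ± 11.8 and 53.5 ± 30.6 CPM. Another set was higher where *Psmb11* was not seen. *Gas1* was at 149 to 788 CPM with and 550 to 1220 CPM without the UMI and *Krt14* at 575 ± 203 and 991 ± 307 CPM, each lower with the UMI in 7 of 7 libraries, and *Dcn* at 958 ± 473 and 1571 ± 530 CPM, lower in 6 of 7. *Igfbp4* was at 294 ± 145 and 592 ± 150 CPM and the leading gene *Prelp* at 114 ± 42.4 and 174 ± 63.8 CPM, each lower with the UMI in 6 of 7. At least 5 tuft list UMIs were found in 9 of 230 cTECs with *Psmb11* (3.91%) and in 21 of 190 without (11.1%). The median of the cortical list was 1.32 without those cells. With every cell thinned to 2000 UMIs it was 1.35.

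**Figure D4:**
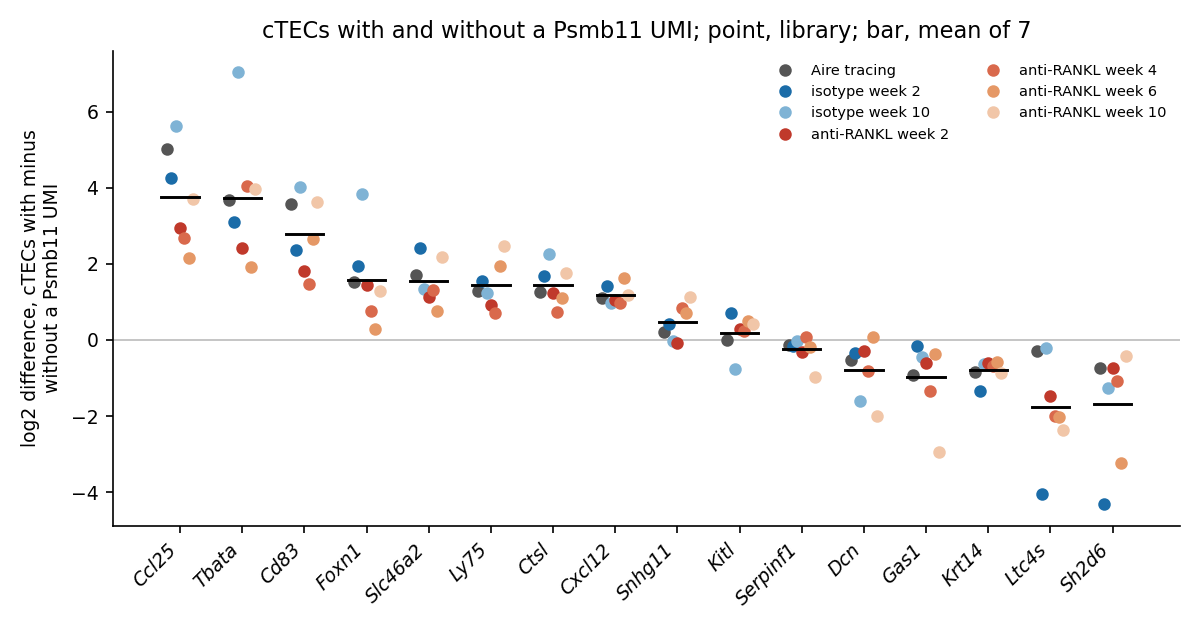
Log2 difference between cTECs with and without a *Psmb11* UMI for 16 genes, with 1 point per library and a bar at the mean of 7. All points of *Ccl25* and *Tbata* lie above 0, those of *Kitl* and *Serpinf1* lie on both sides of it, and those of *Krt14*, *Gas1* and the tuft genes *Ltc4s* and *Sh2d6* lie below it.

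cTECs of the 2 libraries from 12-week-old mice, isotype week 10 and anti-RANKL week 10, had higher levels of cortical genes than those of the 5 younger libraries. This, too, was noticed in the data and is a description. Of 2826 genes of at least 50 CPM, 384 (13.6%) were higher in both older libraries than in all 5 younger ones and 172 (6.09%) lower. Among 13 cortical genes 11 were higher and none lower, namely *Ctsl*, *Cxcl12*, *Ccl25*, *Ly75*, *Tbata*, *Foxn1*, *Cd83*, *Slc46a2*, *Isg20*, *Snhg11* and *Syngr1*. In the other *Ptprc*-negative cells of the same libraries 240 of 2629 genes (9.13%) were higher in both and 244 (9.28%) lower, and 1 of 8 cortical genes, *Foxn1*, was higher.

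*Tbata* was at 3455 and 3115 CPM in cTECs at 12 weeks, against 683 to 1979 CPM in the younger libraries. *Snhg11* was at 313 and 483 CPM against 94.3 to 170 CPM, and *Prss16*, a gene of the rule, at 2039 and 1825 CPM against 481 to 1042 CPM. *Psmb11* was at 795 and 657 CPM against 149 to 406 CPM. The older libraries also held the highest shares of cTECs with a *Psmb11* UMI, at 67.6% and 75.6%. Among cTECs with that UMI, *Ccl25* was still at 3083 and 1737 CPM against 569 to 1422 CPM in the younger libraries, and *Tbata* at 4775 and 4048 against 1109 to 3026 CPM. *Foxn1*, *Ctsl*, *Slc46a2*, *Isg20* and *Syngr1* no longer lay apart among these cells. *Foxn1* at anti-RANKL week 10 was at 81.2 CPM and *Ctsl* at 5871 CPM, against up to 84.1 and 6274 CPM in the younger libraries, and *Slc46a2* was at 411 against up to 460.0 CPM. Age, weeks after treatment and library cannot be told apart in these samples, and anti-RANKL week 10 is 1 of the 2 libraries that stood apart in *Xist*.

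**Figure D5:**
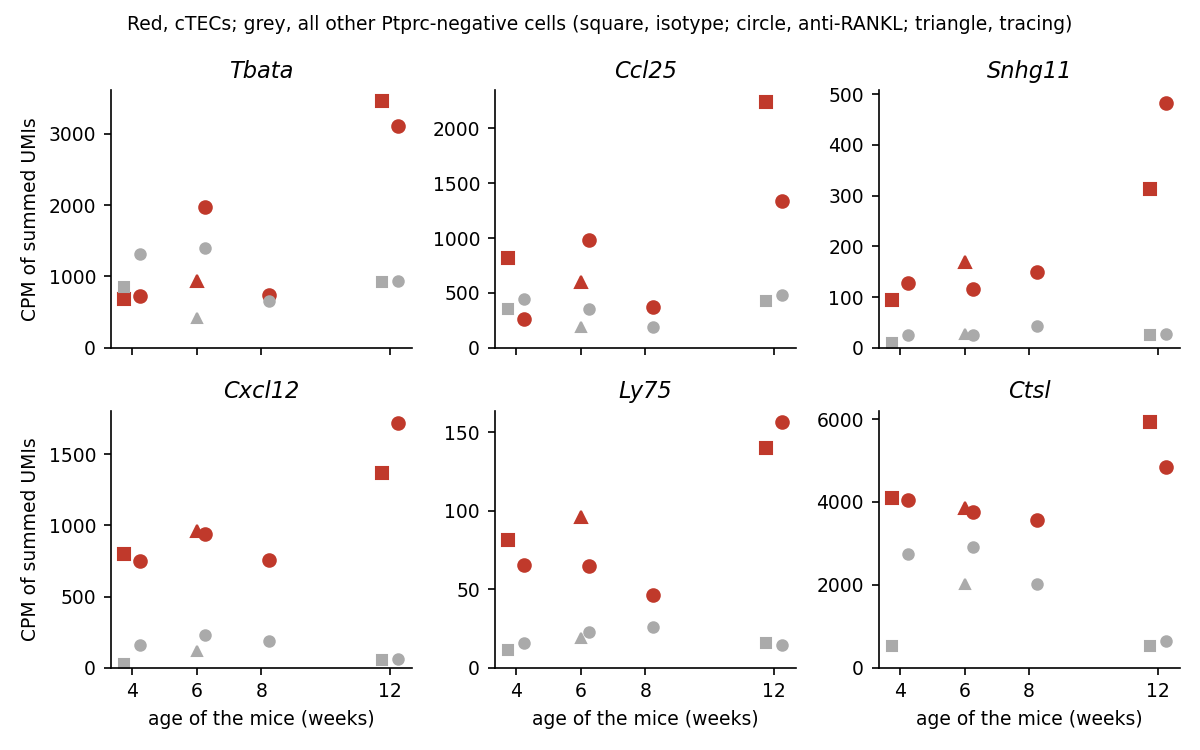
CPM of summed UMIs of 6 cortical genes against the age of the mice in weeks, on linear axes from 0, in cTECs (red) and all other *Ptprc*-negative cells (grey), with squares for isotype, circles for anti-RANKL and triangles for lineage tracing libraries, set slightly apart where ages coincide. In cTECs both libraries of 12 weeks lie above the 5 younger ones in every panel, with *Tbata* at 3455 and 3115 CPM, and the grey points show no such gap.

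cTECs of the anti-RANKL and isotype libraries were compared within week 2 and within week 10, with 1 library each and no test. At week 2, 27 of 1599 genes of at least 100 CPM were at least 2-fold higher after anti-RANKL (1.69%) and 36 lower (2.25%). At week 10 it was 41 of 1726 higher (2.38%) and 34 lower (1.97%). With cells thinned to 2000 UMIs the counts were 212 and 370 genes in all, in place of 63 and 75. *Cxcl12* was at 802 CPM after isotype and 752 after anti-RANKL at week 2, and at 1365 and 1723 CPM at week 10. *Ctsl* was at 4086 and 4041 CPM at week 2 and at 5936 and 4851 CPM at week 10. *Ccl25* was lower after anti-RANKL in both pairs, at 821 and 259 CPM at week 2 (log2 difference -1.63) and at 2241 and 1341 CPM at week 10 (-0.74).

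Some listed genes were far apart in 1 pair. *Saa3*, an acute-phase protein, was at 1217 CPM after isotype and 7.63 CPM after anti-RANKL at week 2 (-6.12), and the interferon-stimulated *Ifit3* at 421 and 102 CPM (-1.94). *Saa3* also varied among the other libraries, from 3.17 to 494 CPM. The summed level of the 14 immediate early genes was 4675 CPM after isotype and 7627 CPM after anti-RANKL at week 2, and 6580 and 4307 CPM at week 10. *Jun* was at 545 and 1258 CPM at week 2 and at 1192 and 681 CPM at week 10. In the other *Ptprc*-negative cells the sum was 4638 and 10717 CPM at week 2 and 6116 and 5570 CPM at week 10, and its part in the differences was not tested.

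Of 1433 genes compared at both weeks, *Wfdc18* was the only gene at least 2-fold higher at both and *Wfdc2* the only gene at least 2-fold lower at both. *Wfdc18*, a secreted whey acidic protein family member, was at 230 and 601 CPM at week 2 and at 40.5 and 500.5 CPM at week 10. *Wfdc2* was at 528 and 203 CPM at week 2 and at 401 and 109 CPM at week 10. In cTECs with a *Psmb11* UMI *Wfdc2* went the other way at week 2, at 110 and 319 CPM, and was at 504 and 117 CPM at week 10. In those without the UMI it was at 1079 and 130 CPM at week 2 and at 132 and 83.2 CPM at week 10. Past 2-fold in opposite directions at the 2 weeks were *Krt5* (1.09 and -1.04), the phosphatase *Dusp1* (1.41 and -1.40), *Cd52*, *Cyba* and *Oma1*, of which the last 3 were outside the fixed lists and named after their values were seen.

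In the lineage tracing library, 23 of 55 cTECs held a UMI of ZsGreen, listed there as GFP, which is 41.8% (28.7 to 55.9). In *Ccl21a*-high cells it was 35.9% (32.6 to 39.4) of 799, in *Aire*-positive cells 77.0% (71.7 to 81.7) of 287 and in *Ptprc*-positive cells 63.8% (51.3 to 75.0) of 69. The *Ptprc*-positive cells of this library held tuft cell markers at 2177 CPM, neuroendocrine markers at 2248 CPM and T cell markers at 1314 CPM in sum, so no class here is known to be free of the reporter, and the share in cTECs cannot be told apart from free RNA. The median depth was 8332 UMIs in cTECs and 12350 in *Ptprc*-positive cells. Thinned to 2000 UMIs, the shares were 9.09% (3.02 to 20.0) in cTECs, 11.3% in *Ccl21a*-high cells, 42.5% in *Aire*-positive cells and 31.9% in *Ptprc*-positive cells. The level was 126 CPM in cTECs, 64.9 in *Ccl21a*-high cells, 388 in *Aire*-positive cells and 254 in *Ptprc*-positive cells. cTECs with all 3 gate genes held the reporter in 9 of 20 cells and those with 2 in 14 of 35 (40.0%).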

How the data were processed

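Cells were sorted, sequenced on 10x libraries and processed by the authors with Cell Ranger 2.2.0 on mm10, plus the ZsGreen sequence where lineage was traced, then in Seurat 2.3.4, which removed cells by gene number and mitochondrial share. The values the authors deposited are the natural log of 1 plus UMIs per 10000 UMIs of the cell. Whole UMIs were recovered from them (tolerance 0.001), summed over the cells of a class in each library and scaled to CPM. A mean of at least 10 CPM was required. Differences of log2(CPM + 10) within each library were tested with limma 3.58.1 (R 4.3.3, moderated with a mean trend, Benjamini-Hochberg adjustment), 7 libraries, without the 6 genes of the rule, and the step was tested on simulated data. Since log2(CPM + 10) damps low genes, folds of low genes are understated. Libraries are pools, so p-values measure only the spread between these 7 libraries of unlike conditions. Intervals are exact binomial (95%) and cover counting error only. The members and lists were chosen with earlier results of these data known. Genes were named if they were in a fixed list, or had the 15 largest or 10 smallest called differences from all other cells (5 and 5 for the other comparisons) at 50 CPM or more with 1 sign in all libraries, or were past 2-fold the same way in both antibody pairs (at most 6 a direction). Positions are GRCm38. Alternatives changed the pseudocount, filters, depth, rule, comparison cells and libraries. The 10760 cell columns of tables combining libraries were not used. Python 3.11.15, numpy 2.4.6, pandas 2.3.3, scipy 1.17.1 and matplotlib 3.10.9 were used. Some transcription factors of the lists are not reported here.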

Additional observations from a re-analysis of the deposited data

Results flagged for a closer look

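*Ccl20* at anti-RANKL week 4 stood apart from the other libraries. Its log2 difference between cTECs and the other *Ptprc*-negative cells was -0.20 there, against a median of -2.43 over the 7 libraries, and the gap to the nearest library was 0.597 of the whole range, above Dixon's limit for 7 values. The gene was at 0 CPM in cTECs and at 1.47 CPM in the other cells of that library, which held 62 *Aire*-positive cells. Among 38 genes checked this was the only such value, and chance alone gives about 1 in 20.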

How the results depend on the processing

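With a pseudocount of 1 CPM, 516 genes were called higher against all other cells, 370 higher and 372 lower against *Ccl21a*-high cells and 1031 higher against *Aire*-positive cells. With all 3 gate genes required, which leaves out anti-RANKL week 6 with 4 such cells, 403 were higher and 770 lower against all other cells and 410 lower against *Ccl21a*-high cells. With *Aire*-negative cells alone as the comparison, 117 were higher and 263 lower. With the mean of the deposited log values, whose differences are smaller, the counts were 23 and 13, 10 and 26, and 51 and 48 in the 3 comparisons. Leaving out 1 library at a time gave 197 to 295 higher and 424 to 527 lower against all other cells, 174 to 209 and 218 to 257 against *Ccl21a*-high cells, and 548 to 662 and 663 to 734 against *Aire*-positive cells. Centred on the median gene, 182 were higher and 543 lower against all other cells, and 149 and 275 against *Ccl21a*-high cells.

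The share of cTECs was 1.34% with all 3 gate genes, 13.0% with at least 1, 4.40% with *Ccl21a* at most 3, 9.65% with no limit on it, 2.42% after thinning and 8.14% of *Aire*-negative cells. The week 2 difference was then 0.365, 11.2, 3.72, 11.3, 1.01 and -1.80 points. The week 10 difference was 0.067, 0.053, 0.937, 1.24, 1.26 and 1.07 points. ZsGreen was in 9.09% of thinned cTECs. With all 3 gate genes, 164 and 285 genes were at least 2-fold apart at weeks 2 and 10, and 212 and 370 after thinning, where sums are smaller.

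The causes of the other changes were not tested. Of 106 named genes 26 kept their direction and side of the threshold under every alternative run, at most 17 a gene. *Foxn1*, at 0.00, lay between -0.10 and 0.05 without single libraries and turned to 0.30 with all 3 gate genes, 0.05 without cells with T cell UMIs, 0.41 against *Aire*-negative cells and 0.01 with the mean of log values. *H2-Ab1* turned to -0.06 when centred. The comparisons of cTECs with other cells were paired by library. A fit of treatment paired by week was not run.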
